A study of Mus musculus with 11 samples.

Results

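The 78 genes that encode proteins of the mitochondrial ribosome under the names Mrpl (large subunit, 49 genes) and Mrps (small subunit, 29 genes) were followed in RNA bound to tagged ribosomes of mouse forebrain neurons. They are the members of a rule on names, which takes every gene whose symbol starts with Mrpl or Mrps followed by a number, out of 77179 gene IDs in the deposited table, leaving out 5 pseudogenes. All 78 passed the filter on low values and were among the 19008 genes tested. In the animals used, Cre recombinase from the Neurod6 (NEX) locus turns on a GFP-tagged copy of Rpl10a, a protein of the cytosolic ribosome, so that beads with antibodies against GFP pull down cytosolic ribosomes and their mRNA from excitatory neurons. Pull-down RNA (IP) of cortex and hippocampus was sequenced from NEX-Cre;Rpl10aeGFP/eGFP mice of 7, 14 and 21 days of age (P7, P14 and P21); the 3 libraries of each age are labelled as biological replicates. RNA of the whole tissue (input) was sequenced at P7 in 2 libraries, replicate 1 from NEX-Cre;Rpl10aeGFP/eGFP and replicate 2 from Rpl10aeGFP/eGFP, a genotype without Cre. All animals therefore carried the Rpl10a reporter alleles, and the input libraries are of P7 alone, so the age comparisons are among IP libraries. The labels do not say how many animals went into a library.

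Mitochondria have their own ribosome, which translates the 13 mRNAs of the mitochondrial genome, all of them encoding subunits of the respiratory chain or ATP synthase. Its RNAs are made in the organelle, but every one of its proteins is encoded in the nucleus, translated on cytosolic ribosomes and imported. Many of these proteins descend from those of bacterial ribosomes, and others were added in the course of mitochondrial evolution. In neurons, which depend on oxidative phosphorylation for ATP, defects of mitochondrial translation are known from humans as causes of encephalopathy. The tagged ribosome is the cytosolic one, so the IP measures mRNAs for mitochondrial ribosomal proteins that are bound to cytosolic ribosomes, and not the mitochondrial ribosome itself. By what is known of their proteins the genes fall into 29 large-subunit members with a bacterial relative, 22 large-subunit members found in mitochondria alone, 16 small-subunit members with a bacterial relative and 10 small-subunit members found in mitochondria alone. Mrps30 and Mrps18a are counted with the large subunit, where their proteins are now placed despite the name. Mrps18a and Mrps18b are extra relatives of bacterial S18 whose places in the ribosome have no bacterial counterpart, and they are counted with the members found in mitochondria alone. Mrps36 is left unclassed, since its protein is now described as a component of the 2-oxoglutarate dehydrogenase complex.

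Levels are in TPM, a unit corrected for transcript length and scaled to a fixed total per library, so that genes can be compared with each other. The deposited values keep no record of sequencing depth, which is unknown. The number of genes with at least 1 TPM was 15154 to 17793 over the libraries. Summed over 6 markers each, astrocyte genes held 34.7 to 52.7 TPM in P7 IP, 82.7 to 108 TPM in P14 IP and 120 to 149 TPM in P21 IP, against 597 to 657 TPM in P7 input. Oligodendrocyte genes held 30.9 to 34.5, 290 to 393 and 484 to 695 TPM in IP at the 3 ages, against 183 to 249 TPM in input. Inhibitory neuron genes held 43.5 to 48.1 TPM and microglia genes 6.07 to 9.97 TPM in P7 IP, against 594.5 to 719 TPM and 135 to 172 TPM in input. Excitatory neuron genes held 1046 to 1272, 2584 to 2812 and 3025 to 3219 TPM in IP at the 3 ages and 1045 to 1169 TPM in input, so that at P7 other cell types were far lower in IP while the excitatory markers as a sum overlapped with input. Fewer cells of a type and less RNA per cell cannot be told apart in such bulk libraries. Changes were computed from log2(TPM + 1), so that those of low genes come out too small, and are given with standard errors (SE) and Benjamini-Hochberg adjusted p-values of a limma fit over all genes tested. A gene is called at an adjusted p under 0.05.

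Although their proteins stand in the finished ribosome in about equal numbers, the 78 mRNAs differed widely in level. Averaged over the 9 IP libraries they ranged from 6.28 TPM for Mrpl1 to 526 TPM for Mrpl33, which is 83.7 times as much, with a median of 67.8 TPM, and 26 of them reached 100 TPM. The highest were Mrpl33, Mrps21 (519 TPM), Mrpl42 (498 TPM), Mrpl20 (355 TPM), Mrps24 (304 TPM) and Mrpl30 (292.5 TPM), and the lowest after Mrpl1 were Mrpl19 (11.1 TPM) and Mrps30 (11.3 TPM). The order among the highest was not fixed over the ages. Mrpl33, a relative of the bacterial large-subunit protein L33, led at P7 with 664, 634 and 687 TPM, but stood at 470, 504 and 519 TPM at P14 and at 386, 423 and 446 TPM at P21. Mrps21, a relative of bacterial S21 in the small subunit, had 495, 478 and 477 TPM at P7, 520, 503 and 498 TPM at P14 and 577, 551 and 568 TPM at P21. The libraries of Mrpl33 and Mrps21 did not overlap at P7, when Mrpl33 was higher, or at P21, when Mrps21 was higher, while at P14 they did overlap. Mrpl12, whose protein forms the stalk and is present in several copies per ribosome, was at 169 TPM ± 5.24, 184 TPM ± 2.70 and 174 TPM ± 11.7 in IP at P7, P14 and P21 (SD, n = 3 each) and at 92.3 TPM ± 3.50 in input (SD, n = 2), which is below the 6 highest members at every age in IP.

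**Figure D1:**
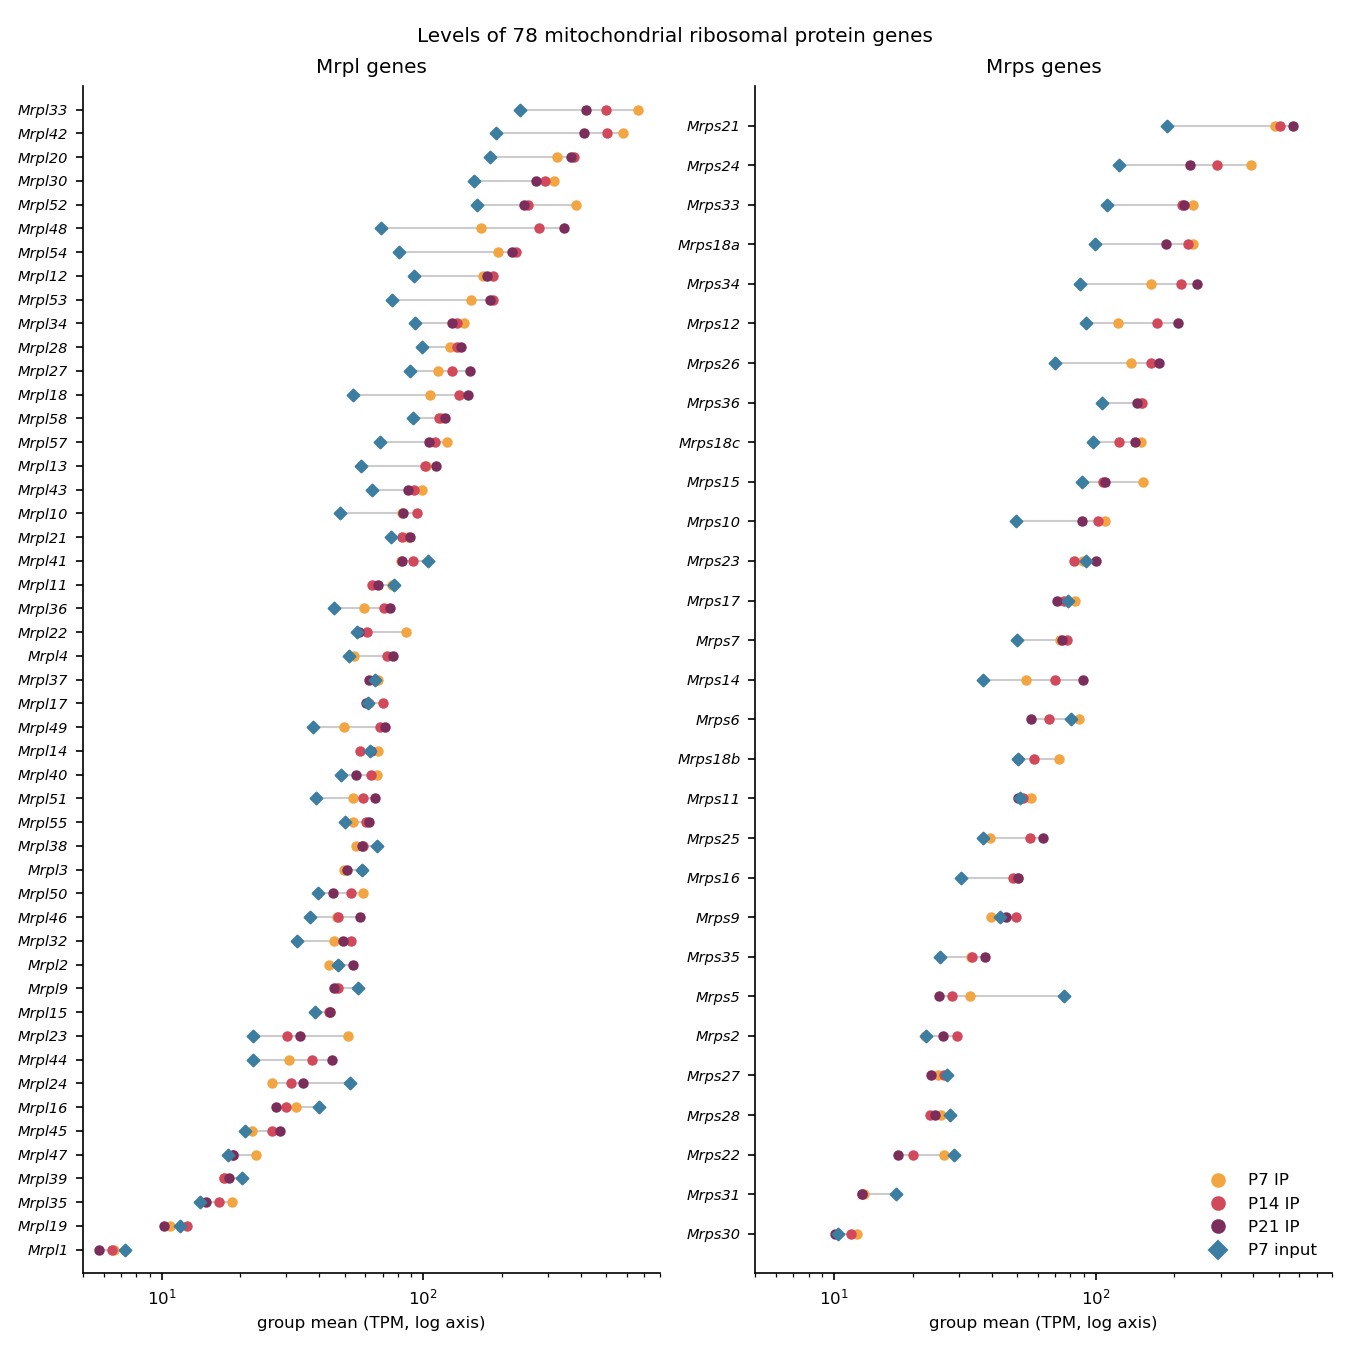
Group mean of each of the 78 genes in TPM (log axis), Mrpl genes on the left and Mrps genes on the right, ordered by their mean over the 9 IP libraries; circles are IP at P7, P14 and P21 (n = 3 each) and diamonds are P7 input (n = 2). Means over IP run from 6.28 TPM (Mrpl1) to 526 TPM (Mrpl33). Wide distances between IP and input are seen in high genes such as Mrps24, Mrpl42 and Mrpl33, and in lower ones such as Mrpl23, Mrps5 and Mrpl24. Genes higher in IP than in input stand further up because the order is by IP level.

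Promoter sequences of the genes were read from RefSeq (build GRCm38.p6, while the submitters' processing notes name mm39), as windows of 250 bases before to 50 bases after the start of the gene. Windows matched 69 of the 78. Those of Mrps24 and Mrpl33, which were far higher in IP than in input and fell with age, of Mrps18a, which was also high in IP, and of Mrps12, which rose with age, are shown 5′ to 3′ on the gene's own strand. Capitals mark letters searched for on both strands, GCGCATGC (NRF1), CCGGAAG (ETS factors), AAGATGGC (YY1) and CCAAT (NFY); none of the 4 strings contains another.
Mrps24, chr11:5707652-5707951 (minus strand): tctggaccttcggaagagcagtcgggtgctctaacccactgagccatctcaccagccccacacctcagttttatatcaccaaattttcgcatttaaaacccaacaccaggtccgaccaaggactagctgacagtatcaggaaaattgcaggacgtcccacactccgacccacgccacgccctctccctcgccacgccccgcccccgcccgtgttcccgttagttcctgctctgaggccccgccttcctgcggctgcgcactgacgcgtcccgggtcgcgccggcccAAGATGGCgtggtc
Mrpl33, chr5:31613701-31614000 (plus strand): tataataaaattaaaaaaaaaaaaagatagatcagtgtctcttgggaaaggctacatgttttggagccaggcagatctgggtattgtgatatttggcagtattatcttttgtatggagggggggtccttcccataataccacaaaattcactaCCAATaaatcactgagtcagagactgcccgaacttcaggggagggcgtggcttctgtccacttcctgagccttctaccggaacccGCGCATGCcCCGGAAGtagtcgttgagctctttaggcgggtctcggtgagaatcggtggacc
Mrps18a, chr17:46110754-46111053 (plus strand): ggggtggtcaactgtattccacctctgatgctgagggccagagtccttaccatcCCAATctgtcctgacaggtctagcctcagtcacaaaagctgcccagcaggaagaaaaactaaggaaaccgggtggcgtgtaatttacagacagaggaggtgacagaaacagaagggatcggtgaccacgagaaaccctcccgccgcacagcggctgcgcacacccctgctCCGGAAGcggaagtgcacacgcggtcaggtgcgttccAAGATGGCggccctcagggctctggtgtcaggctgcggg
Mrps12, chr7:28741772-28742071 (minus strand): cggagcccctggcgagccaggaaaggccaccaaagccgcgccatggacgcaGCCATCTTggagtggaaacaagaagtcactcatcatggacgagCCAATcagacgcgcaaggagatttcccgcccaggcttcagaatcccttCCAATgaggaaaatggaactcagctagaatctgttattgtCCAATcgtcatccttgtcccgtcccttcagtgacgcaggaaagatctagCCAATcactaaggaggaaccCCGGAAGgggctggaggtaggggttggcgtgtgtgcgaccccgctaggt
NRF1, ETS factors and YY1 are known activators of nuclear genes for mitochondrial proteins. The ETS letters were in 26 of the 69 members (37.7%), against 18.5% of 10731 other tested coding genes and 9.93% of all 27025 genes with a window. Those of YY1 were in 12 members (17.4%), against 4.89% of the other tested coding genes and 3.19% of all genes, and in 8 of these 12 they lay after the start of the gene, as in Mrps24 and Mrps18a above. The NRF1 letters were in 8 members (11.6%), against 5.76% and 3.05%. The CCAAT letters were in 27 members (39.1%), against 43.0% and 41.1%. Median GC content was 58.7% in the windows of the members and 60.7% in those of the other tested coding genes. A match describes these letters only and is not a site of binding. Mrpl33 held 3 of the 4 strings, and so did Mrps12 and Mrps18a, while Mrps24 held the YY1 letters alone. Among the 69 only Mrpl32 also held 3, and none held all 4. The windows of other members that changed, such as Mrpl23, Mrpl24, Mrpl30, Mrps5 and Mrps14, held none of the strings. The windows printed here are therefore not typical of the 69.

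The pull-down was first compared with whole tissue at P7, to see where these mRNAs stand among those on ribosomes of the tagged neurons. Mitochondrial ribosomal protein genes stood mostly higher in IP, with Mrps24, Mrpl42, Mrpl33 and Mrps21 more than 2-fold above input, whereas Mrps5 and Mrpl24 stood clearly lower. Together the 78 genes made up 0.855% to 0.874% of all TPM in P7 IP, against 0.517% and 0.519% in input. In the same libraries the 13 mRNAs that the mitochondrion encodes itself, which are not translated by the tagged ribosomes, held 0.677% to 0.879% of TPM in IP, against 11.5% and 13.3% in input, and cytosolic ribosomal protein genes held 12.0% to 12.6% in IP, against 6.40% and 6.68% in input. Of the 78, 48 were called higher in IP, 9 lower and 21 neither, where 18.6% of all tested genes were higher and 51.1% lower, 69.8% in all. Their median log2 change was 0.38, against -0.33 over all genes. Markers of astrocytes, oligodendrocytes, microglia and inhibitory neurons were lower in the same IP libraries, as given above, and their part in the result was not tested. The libraries of IP and input did not overlap for 53 members that were above and 14 that were below (22.1% and 56.3% of all genes), and 12 members were at least 2-fold higher and 1 at least 2-fold lower (3.98% and 18.3% of all genes).

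**Figure D2:**
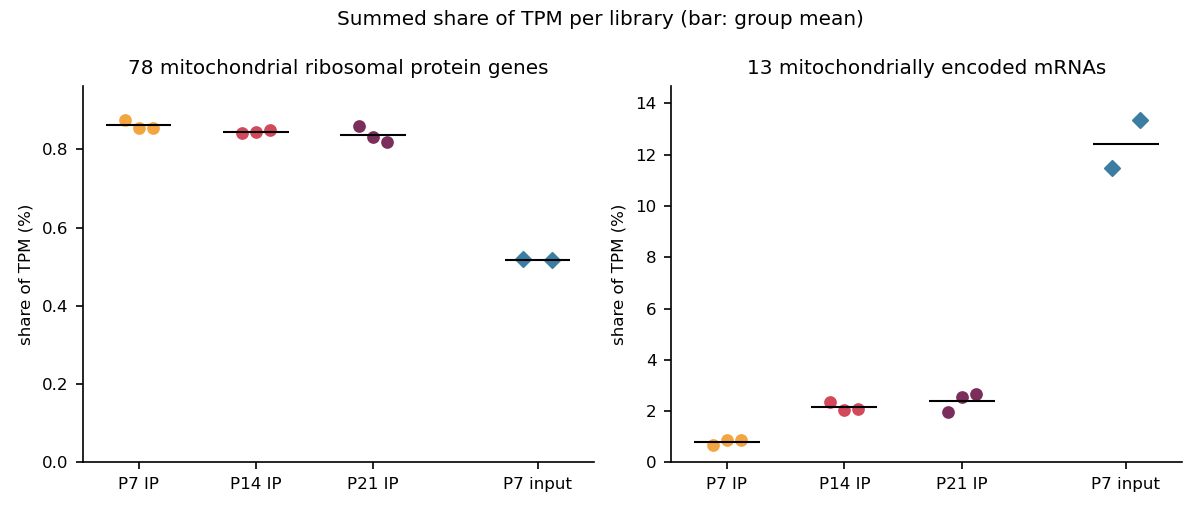
Summed share of TPM in percent, for the 78 mitochondrial ribosomal protein genes (left) and the 13 mitochondrially encoded mRNAs (right); each point is 1 library, in the order P7, P14 and P21 IP and then P7 input, and bars are group means. The left panel shows IP at 0.818% to 0.874% at all ages, above input at 0.517% and 0.519%, and the right panel shows the reverse order of IP and input.

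Mrps24 (ENSMUSG00000020477), the small-subunit relative of bacterial S3, was at 382, 389 and 402 TPM in P7 IP, against 116 and 129 TPM in input. All 3 IP libraries stood about 3-fold above both input libraries, with a change of 1.67 ± 0.08 on the log2 scale (SE, limma adjusted p = 7.66e-08). Mrpl42 (ENSMUSG00000062981), a large-subunit protein without a bacterial relative, was at 622, 574 and 550 TPM in IP, against 190 and 189 TPM in input. The lowest IP library was well above the higher input library, and the log2 change was 1.61 ± 0.07 (adjusted p = 2.65e-08). For Mrpl33 (ENSMUSG00000106918) IP held 661 TPM ± 26.6 (SD, n = 3) and input 235 TPM ± 12.8 (SD, n = 2), a change of 1.49 ± 0.07 with no overlap. Mrps21 (ENSMUSG00000054312) held 484 TPM ± 10.2 in IP and 187 TPM ± 3.31 in input and changed by 1.36 ± 0.04, the smallest adjusted p among these genes at 1.17e-08. Then came the large-subunit genes Mrpl52 (1.26 ± 0.06), Mrpl48 (1.26 ± 0.09), Mrpl54 (1.24 ± 0.06), Mrps18a (1.23 ± 0.04), Mrpl23 (1.17 ± 0.09) and Mrpl30 (1.01 ± 0.05) and the small-subunit genes Mrps10 (1.12 ± 0.07) and Mrps33 (1.08 ± 0.06). In each of these 12 genes every IP library stood above both input libraries. Both subunits and both origins were among them, with 33 of the 51 large-subunit members called higher and 7 lower (median 0.37), and 14 of the 26 small-subunit members higher and 2 lower (median 0.39). Members with a bacterial relative had 26 higher and 5 lower of 45 (median 0.35), and those found in mitochondria alone 21 higher and 4 lower of 32 (median 0.42). Mrpl58, a peptidyl-tRNA hydrolase that became part of the large subunit, was at 127, 114 and 110 TPM in IP, against 93.9 and 88.7 TPM in input, without overlap and with a change of 0.35 ± 0.08 (adjusted p = 0.00295). The unclassed Mrps36 was at 140, 152 and 155 TPM in IP and 106 TPM in both input libraries, higher by 0.49 ± 0.07.

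Against this run, Mrps5 (ENSMUSG00000027374), the small-subunit relative of bacterial S5, was at 35.8, 35.7 and 28.1 TPM in IP, against 80.5 and 71.2 TPM in input. Each IP library held less than either input library, and a change of -1.17 ± 0.17 on the log2 scale (limma adjusted p = 0.000102) made it the only member at least 2-fold lower. Mrpl24 (ENSMUSG00000019710), the large-subunit relative of bacterial L24, was at 26.8, 26.8 and 25.6 TPM in IP, against 51.1 and 53.4 TPM in input. Here too the groups were apart, with a change of -0.96 ± 0.06 (adjusted p = 1.85e-07). The genomic span of Mrpl24 overlaps that of Rrnad1, which held 6.28 TPM ± 0.891 in IP and 17.6 TPM ± 0.599 in input, and whether reads were shared was not tested. The other 7 members called lower were Mrps31 (-0.38 ± 0.09), Mrpl41 (-0.35 ± 0.08), Mrpl16 (-0.29 ± 0.09), Mrpl9 (-0.27 ± 0.06), Mrpl38 (-0.26 ± 0.05), Mrpl3 (-0.22 ± 0.06) and Mrpl39 (-0.21 ± 0.07), and in all 7 no IP library overlapped with input. Their calls depend on the scaling. With median-of-ratios scaling, which moves the median of all genes by 0.33, 68 members were higher and 2, Mrps5 (-0.77) and Mrpl24 (-0.56), lower, where 32.9% of all genes were higher and 32.3% lower, and the other 7 changed sign. With quantile normalisation 59 were higher and 5 lower (32.9% and 31.7% of all genes). Values were also rescaled to the genes other than haemoglobins, cytosolic ribosomal proteins and those of the mitochondrial genome. After that 44 were higher and 16 lower (15.1% and 56.1% of all genes). Leaving out input replicate 1 took the call of Mrpl16 to an adjusted p of 0.0745, and leaving out replicate 2 to 0.0652. The call of Mrpl3 was lost when input replicate 1 was left out (adjusted p = 0.116). That of Mrpl39 was lost when input replicate 1 (adjusted p = 0.106), input replicate 2 (0.058) or P7 IP replicate 1 (0.0599) was left out.

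**Figure D3:**
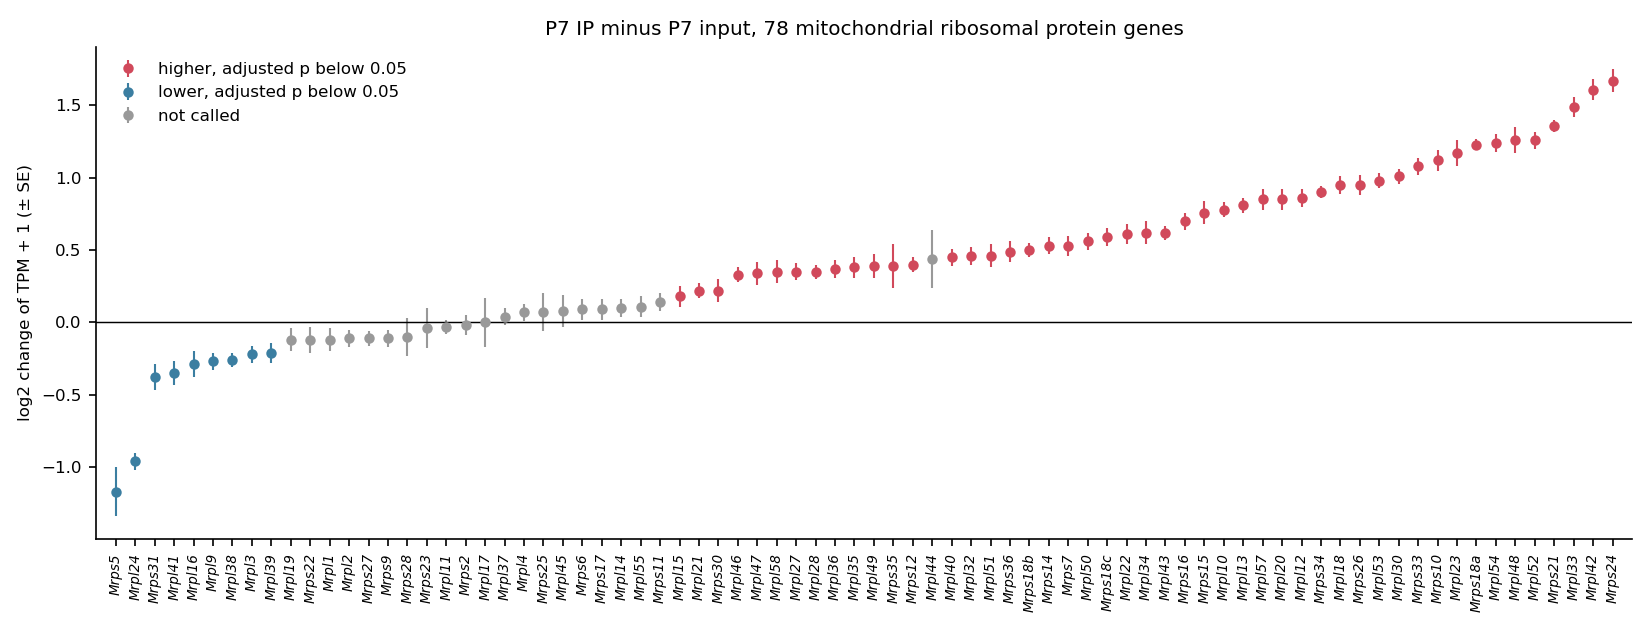
Log2 change of TPM + 1, P7 IP minus P7 input, for each of the 78 genes from lowest to highest; points are limma estimates from 3 IP and 2 input libraries, bars are ± 1 SE, red and blue mark genes called higher and lower in IP, and grey marks the rest. The values run from -1.17 (Mrps5) to 1.67 (Mrps24), with 48 red, 9 blue and 21 grey points.

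The difference between IP and input was then set beside the level of the gene. Among the 26 members with the highest input level (76.2 to 235 TPM) 21 were higher in IP and 1 lower, with a median change of 0.80. Of all 1650 tested genes in that input range 38.3% were higher and 41.2% lower (median -0.03). The middle 26 (45.7 to 75.9 TPM) had 14 higher and 5 lower (median 0.30), where 30.0% of the 1421 tested genes in their range were higher and 48.1% lower (median -0.16). The lowest 26 (7.25 to 43.0 TPM) had 13 higher and 3 lower (median 0.20), where 16.1% of 6802 genes were higher and 61.0% lower (median -0.43). Over all tested genes, too, the share that was higher in IP grew with the input range. The input value enters both measures, so this is a description.

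Over the 3 ages the summed share of these mRNAs moved little beside the changes of single members. The 78 genes held 0.855% to 0.874% of TPM in IP at P7, 0.841% to 0.848% at P14 and 0.818% to 0.859% at P21, so that all P14 libraries were below those of P7 while the P21 libraries overlapped with both. The 13 mRNAs which their products translate held 0.677% to 0.879%, 2.03% to 2.35% and 1.96% to 2.67% of TPM at the 3 ages, and the IP libraries of P14 and P21 therefore held more of them than those of P7 without overlap. A moderated F test over the 3 ages called 54 of the 78 members (69.2%), where 62.6% of all tested genes were called. Between P21 and P7, 26 members rose and 25 fell, where 27.3% of all genes rose and 32.6% fell (59.9% in all), and the median log2 change was 0.00, against -0.04 over all genes. The large subunit had 18 rises and 16 falls among 51, the small subunit 8 rises and 9 falls among 26. Those with a bacterial relative had 15 rises and 14 falls among 45, and those found in mitochondria alone 11 and 11 among 32. The members thus changed about as often as other genes, in both directions. With median-of-ratios scaling 28 rose and 17 fell (30.6% and 29.8% of all genes). Markers of most other cell types, but not of endothelial cells, rose over the same ages. At P21 against P7 6 of 6 oligodendrocyte, 6 of 6 microglia, 5 of 6 astrocyte and 5 of 6 inhibitory neuron markers were called higher and none lower. Of the oligodendrocyte precursor markers 3 of 4 were called higher, but of the endothelial markers only 1 of 5. Endothelial sums overlapped, at 12.27 to 16.25, 12.64 to 14.82 and 10.74 to 17.24 TPM in IP at the 3 ages. In sum microglia markers held 6.07 to 9.97, 16.1 to 20.8 and 15.7 to 22.7 TPM and inhibitory neuron markers 43.5 to 48.1, 50.6 to 56.3 and 67.6 to 82.3 TPM in IP at the 3 ages, with the other sums as given above, and their part in these changes was not tested.

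Mrpl48 (ENSMUSG00000030706), a large-subunit protein found in mitochondria alone, rose most of the 78 between P7 and P21. It was at 156, 184 and 160 TPM at P7, 296, 282 and 251 TPM at P14 and 371, 346 and 319 TPM at P21, against 67.7 and 69.7 TPM in P7 input. Every library of an age stood above every library of the age before, and P21 was higher than P7 by 1.05 ± 0.08 (limma adjusted p = 1.32e-06), the only change of at least 2-fold among the 78 (7.14% of all genes rose and 7.48% fell by as much). The span of the gene overlaps that of Rab6a, which was at 253 TPM ± 13.9, 285 TPM ± 1.67 and 247 TPM ± 24.0 in IP at the 3 ages (SD, n = 3 each) and at 277 TPM ± 2.07 in input (SD, n = 2), and its P21 libraries overlapped with those of P7. Mrps12 (ENSMUSG00000045948), whose bacterial relative S12 sits at the decoding site and whose promoter is printed above, was at 124, 118 and 123 TPM at P7, 169, 174 and 174 TPM at P14 and 215, 207 and 198 TPM at P21. Its groups were apart at each step, with 0.76 ± 0.04 from P7 to P21 (adjusted p = 1.73e-07). Mrps14, a relative of bacterial S14, was at 54.2 TPM ± 2.22, 70.2 TPM ± 3.52 and 89.2 TPM ± 3.79 at P7, P14 and P21 and rose by 0.71 ± 0.05. Mrps34, a small-subunit protein of mitochondria alone that is mutated in human mitochondrial disease, was at 163 TPM ± 1.93, 211 TPM ± 5.18 and 243 TPM ± 4.67 and rose by 0.58 ± 0.04. Mrps25, also of the small subunit, was at 40.7, 41.8 and 35.4 TPM at P7, 60.6, 59.1 and 48.7 TPM at P14 and 68.3, 68.3 and 52.9 TPM at P21. In it replicate 3 was the lowest library at each age, P14 and P21 overlapped, and the change to P21 was 0.66 ± 0.11. The span of Mrps25 overlaps that of Nr2c2, in which replicate 3 was the highest IP library at each age (12.3, 9.57 and 8.0 TPM). Whether reads were shared between Mrps25 and Nr2c2 was not tested. Mrpl49 and Mrpl4 of the large subunit rose by 0.50 ± 0.07 and 0.48 ± 0.06, and all P14 and P21 libraries of both stood above those of P7. Mrpl44, related to RNase III, was at 30.7, 29.2 and 32.5 TPM at P7, 28.8, 52.9 and 30.5 TPM at P14 and 43.0, 41.5 and 49.8 TPM at P21. P14 replicate 2 stood far above the other P14 libraries. Mrpl44 rose by 0.52 ± 0.18 from P7 to P21, a call that did not hold when P21 replicate 1 (adjusted p = 0.0552), P21 replicate 3 (0.098), P7 replicate 1 (0.0651) or P7 replicate 2 (0.0809) was left out. Without P14 replicate 2 its change from P14 to P21 was 0.57 (adjusted p = 0.00197), against 0.30 with all libraries (adjusted p = 0.253).

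Of the 12 members at least 2-fold higher in P7 IP than in input, 8 fell between P7 and P21, 3 rose and 1 was not called. Over all tested genes 32.6% fell and 27.3% rose. The P7 IP libraries that picked these 12 are also the baseline of the later change, so the counts are a description and not an independent result. The 3 that rose were Mrpl48, Mrps21 (0.22 ± 0.04, limma adjusted p = 0.000583, but 0.09 with adjusted p = 0.0549 under quantile normalisation) and Mrpl54 (0.18 ± 0.06, adjusted p = 0.0202). Removing P7 IP replicate 1 (adjusted p = 0.0759), P21 IP replicate 1 (0.0788) or P21 IP replicate 2 (0.0522) ended the call of Mrpl54. Mrps24 was at 382, 389 and 402 TPM at P7, 276, 289 and 305 TPM at P14 and 245, 242 and 204 TPM at P21, against 116 and 129 TPM in P7 input. The ages did not overlap, the change between P7 and P21 was -0.77 ± 0.07 (limma adjusted p = 6.78e-06), and P21 IP was still above P7 input. Mrpl33, with the values given above, changed by -0.66 ± 0.06 (adjusted p = 6.82e-06) and its ages did not overlap either. Mrpl52 was at 405, 367 and 379 TPM at P7, 247, 242 and 262 TPM at P14 and 245, 251 and 232 TPM at P21. Its P7 libraries stood above all later ones, P14 and P21 overlapped, and the change to P21 was -0.66 ± 0.05. Mrpl42 was at 582 TPM ± 36.6, 502 TPM ± 30.6 and 411 TPM ± 13.1 at P7, P14 and P21 and changed by -0.50 ± 0.06. In the small subunit Mrps6, a relative of bacterial S6, was at 86.2 TPM ± 5.03, 66.6 TPM ± 1.75 and 56.8 TPM ± 3.65 (-0.59 ± 0.06), while its input level was 80.7 TPM ± 4.36. Mrps22, a small-subunit protein of mitochondria alone that is mutated in human mitochondrial disease, was at 26.4 TPM ± 1.31, 20.0 TPM ± 1.98 and 17.5 TPM ± 1.49 (-0.57 ± 0.08). Mrpl22 was at 85.8 TPM ± 4.74, 61.2 TPM ± 1.95 and 56.6 TPM ± 4.86 (-0.59 ± 0.07), and its P14 and P21 libraries were all below those of P7. Mrpl22 is the relative of bacterial L22, which lines the exit tunnel.

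**Figure D4:**
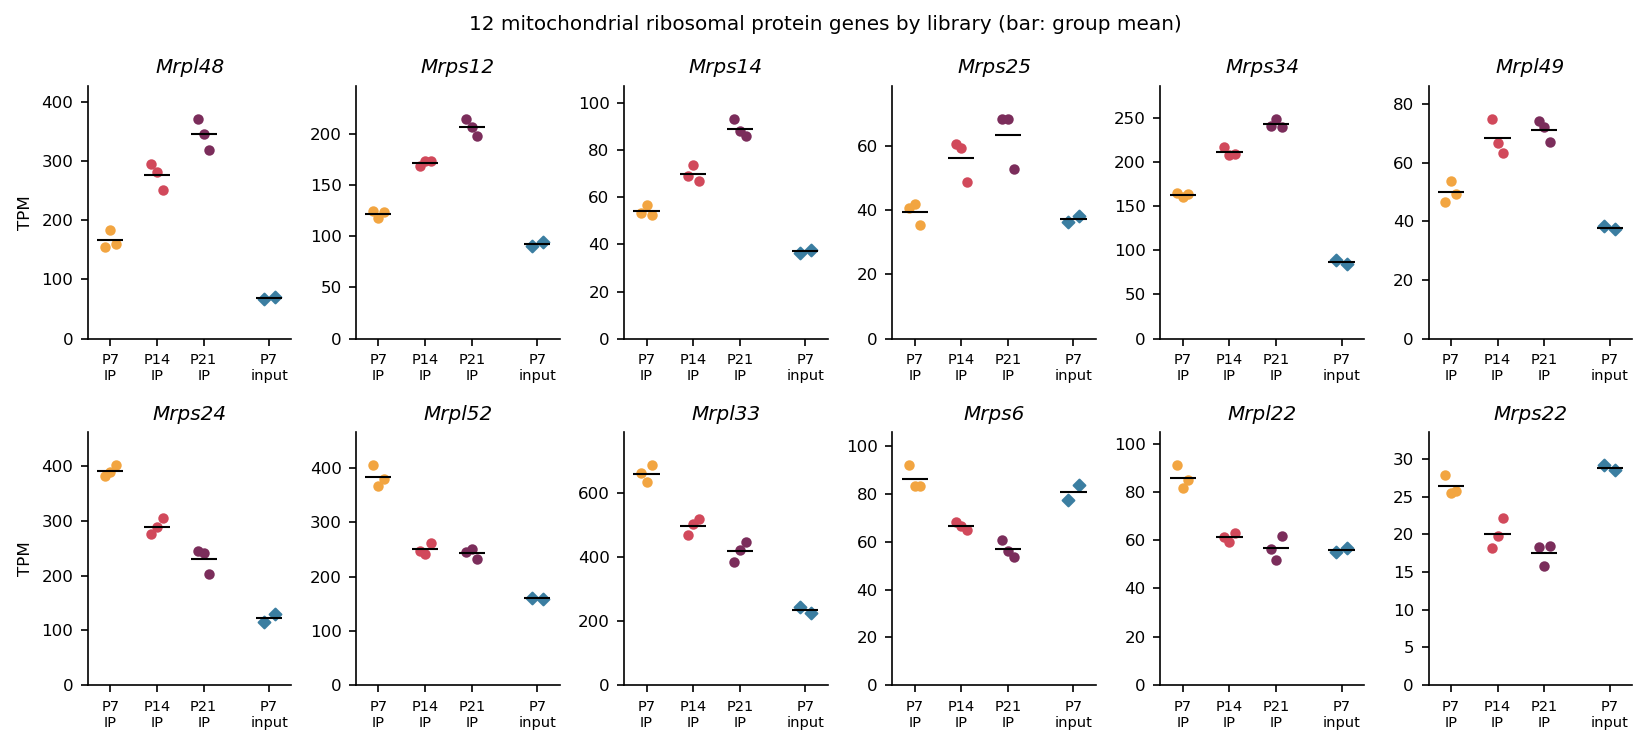
TPM of 12 genes in each library, 6 that rose (upper row) and 6 that fell (lower row) between P7 and P21; points are IP at P7, P14 and P21 (n = 3 each) and then P7 input (n = 2, diamonds), bars are group means, and each axis starts at 0. Mrpl48 rises to 319 to 371 TPM at P21, above 156 to 184 TPM at P7, while Mrps24 falls to 204 to 245 TPM, below 382 to 402 TPM.

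The steps from P7 to P14 and from P14 to P21 were then taken separately. At P14 against P7, 21 members rose and 16 fell, where 26.7% of all genes rose and 22.8% fell (49.5% in all), and none changed 2-fold (4.38% of all genes rose and 3.34% fell by as much). With median-of-ratios scaling 16 rose and 22 fell (24.3% and 25.5% of all genes). The leading rises were those of Mrpl48 (0.73 ± 0.08), Mrps25 (0.50 ± 0.11), Mrps12 (0.49 ± 0.04), Mrpl49 (0.44 ± 0.07), Mrpl4 (0.40 ± 0.06) and Mrps2 (0.39 ± 0.06). The leading falls were those of Mrpl23 (-0.75 ± 0.08), Mrpl52 (-0.61 ± 0.05), Mrps15 (-0.50 ± 0.07), Mrpl22 (-0.48 ± 0.07), Mrps24 (-0.43 ± 0.07) and Mrpl33 (-0.41 ± 0.06). At P21 against P14, 11 rose and 13 fell, where 8.53% of all genes rose and 19.7% fell (28.3% in all), and none changed 2-fold (0.742% rose and 0.663% fell by as much). Of these 24 calls 5 were made under every alternative tried. They were the rises of Mrps14 (0.34 ± 0.05), Mrps12 (0.26 ± 0.04), Mrpl46 (0.26 ± 0.04) and Mrps34 (0.20 ± 0.04), and the fall of Mrps18a (-0.27 ± 0.04). Mrps24 (-0.34 ± 0.07) and Mrpl42 (-0.29 ± 0.06) also fell, but not with median-of-ratios scaling (-0.22, adjusted p = 0.097, and -0.17, adjusted p = 0.08). The rise of Mrpl48 at this step (0.32 ± 0.08, adjusted p = 0.015) was lost without P14 replicate 3 (adjusted p = 0.06) or P21 replicate 1 (adjusted p = 0.0577). The number of rises at this step changed when single libraries were left out. There were 7 without P14 replicate 1 or 2 and 6 without P14 replicate 3 or P21 replicate 1. The falls were 6 without P14 replicate 2 and 7 without P14 replicate 3. Shares over all tested genes are not given for these fits. The drops are therefore not read as a trait of the members. Median-of-ratios scaling gave 19 rises and 1 fall (14.4% and 12.0% of all genes), and quantile normalisation 15 and 5 (12.0% and 14.0%). Of the 78 genes 6 rose at both steps, among them Mrps12, Mrps14 and Mrps34, and 6 fell at both, among them Mrps24. Another 33 were called at neither. These patterns over both steps were not counted for all tested genes, so they are not read as a trait of the members.

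**Figure D5:**
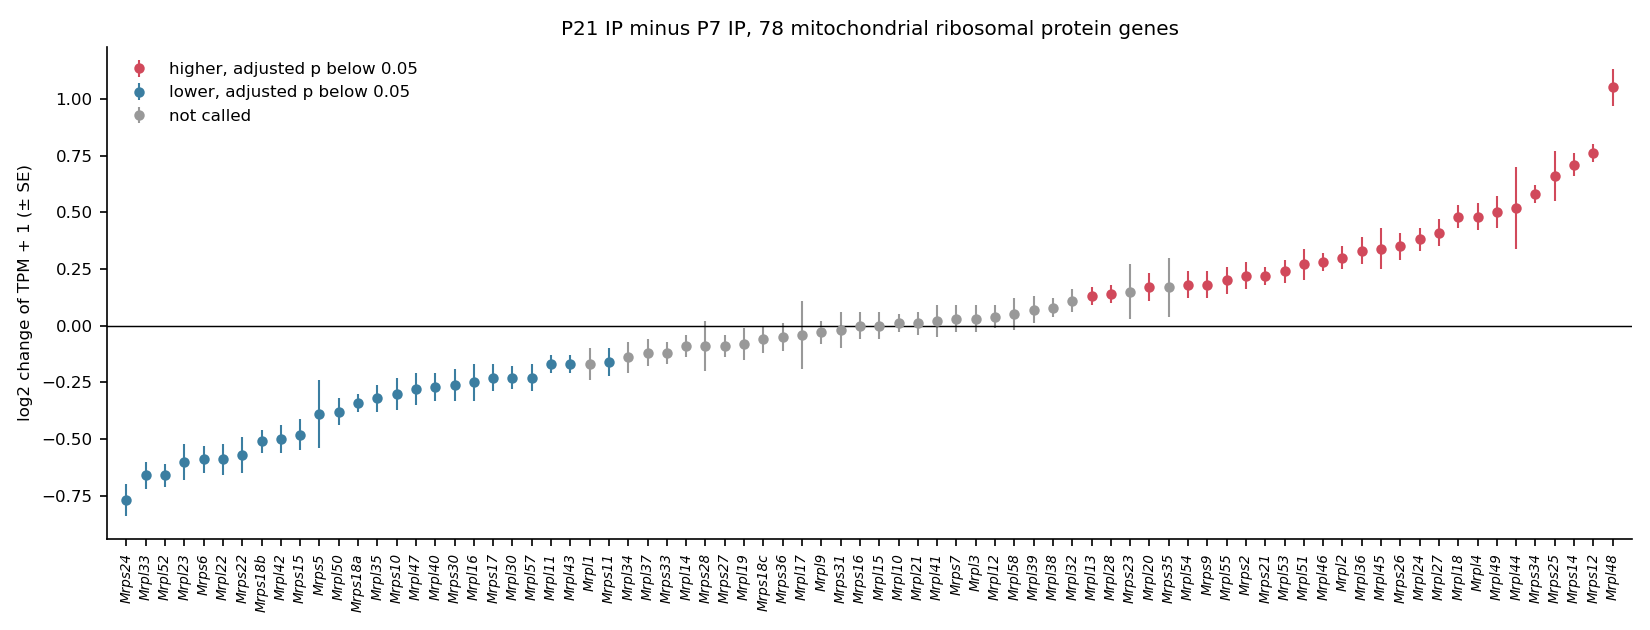
Log2 change of TPM + 1, P21 IP minus P7 IP, for each of the 78 genes from lowest to highest; points are limma estimates from 3 libraries per age, bars are ± 1 SE, red and blue mark genes called higher and lower at P21, and grey marks the rest. The values run from -0.77 (Mrps24) to 1.05 (Mrpl48), with 26 red and 25 blue points.

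Whether the second weekly step equalled the first was tested as a difference of the 2 steps, and 8 members had a higher second step and 11 a lower one, where 7.46% and 16.8% of all genes did. With median-of-ratios scaling 14 had a higher second step and 1 a lower one (11.8% and 10.7% of all genes). With quantile normalisation the counts were 10 and 3 (10.4% and 12.3% of all genes). Without rescaling, the 8 and 11 became 3 and 4 when P14 replicate 1 was left out. The lower ones were 3 without P14 replicate 2, 6 without P21 replicate 2, and 7 without P7 replicate 3 or P21 replicate 3. For fits with a library left out, shares over all tested genes are not given, so these drops are not read as a trait of the members. Mrps2, a relative of bacterial S2, was at 20.8, 24.4 and 21.5 TPM at P7, 30.1, 29.7 and 28.4 TPM at P14 and 24.9, 25.8 and 27.2 TPM at P21. Its P14 libraries were above both other ages, and the second step was lower than the first by -0.56 ± 0.11 (limma adjusted p = 0.00538). Mrpl52 fell at the first step and showed a change of -0.04 ± 0.05 at the second, so that the second was higher by 0.57 ± 0.09 (adjusted p = 0.0016). Mrps18c was at 158, 137 and 151 TPM at P7, 123, 118 and 128 TPM at P14 and 145, 143 and 138 TPM at P21. Its P14 libraries were below both other ages, P7 and P21 overlapped, and the second step was higher by 0.47 ± 0.10 (adjusted p = 0.00714). Mrpl23, a relative of bacterial L23, was at 53.2, 46.4 and 55.1 TPM at P7, 31.1, 27.3 and 32.4 TPM at P14 and 32.7, 34.1 and 34.2 TPM at P21, against 20.9 and 23.9 TPM in P7 input. All later IP libraries were below P7 and above input, and the second step was higher by 0.91 ± 0.14 (adjusted p = 0.00179). The 4 differences just given were called under every alternative tried.

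The pseudogene of Mrpl23 was itself high, and the table may split reads between the pair. Mrpl23-ps1 was at 170, 164 and 168 TPM at P7, 128, 136 and 141 TPM at P14 and 134, 135 and 126 TPM at P21, against 129 and 116 TPM in P7 input, which is above Mrpl23 in every library. The other 4 pseudogenes left out reached at most 0.737 TPM in any library. Summed with its pseudogene, Mrpl23 was at 219 TPM ± 7.39 in P7 IP, 165 TPM ± 7.17 in P14 IP and 165 TPM ± 4.59 in P21 IP (SD, n = 3 each), against 145 TPM ± 7.05 in input (SD, n = 2). The sum was higher in P7 IP than in input by 0.59, against 1.17 for Mrpl23 alone, and changed by -0.40 between P7 and P21 (adjusted p = 3.87e-05), against -0.60 alone. At the first weekly step the sum changed by -0.40 (adjusted p = 6.56e-05), against -0.75 for the gene alone, and its second step was higher than the first by 0.40 (adjusted p = 0.00733), against 0.91 alone. These 4 directions and calls were the same for the sum and for the gene, but the sizes are uncertain. Besides, the spans of 25 of the 78 genes overlap another gene in RefSeq GRCm38.p6. Among those described above they are Mrpl19, Mrpl24, Mrpl33, Mrpl44, Mrpl48, Mrpl49, Mrps2, Mrps6, Mrps18a and Mrps25, and also Mrps18b. The sources used here do not say whether reads were assigned by strand. Overlap of exons was not examined, and whether reads were shared was not tested.

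The 3 relatives of bacterial S18 are given side by side, and differences between them were not tested. Mrps18c is the small-subunit protein closest to the bacterial position, Mrps18b is a second small-subunit protein, and Mrps18a is built into the large subunit. Mrps18a was at 231, 240 and 234 TPM at P7, 224, 225 and 225 TPM at P14 and 186, 186 and 185 TPM at P21, against 102 and 97.5 TPM in input. Its span overlaps that of Rsph9, which was at 58.5 TPM ± 0.870, 32.8 TPM ± 4.69 and 24.0 TPM ± 1.59 in IP at the 3 ages (SD, n = 3 each) and at 46.2 TPM ± 1.53 in input (SD, n = 2). Mrps18b was at 71.0, 73.9 and 71.6 TPM at P7, 56.0, 58.6 and 59.3 TPM at P14 and 47.7, 50.5 and 52.8 TPM at P21, against 49.9 and 51.3 TPM in input. All 3 were higher in P7 IP than in input, Mrps18a by 1.23 ± 0.04, Mrps18b by 0.50 ± 0.05 and Mrps18c by 0.59 ± 0.06. Between P7 and P21 Mrps18a changed by -0.34 ± 0.04, Mrps18b by -0.51 ± 0.05 and Mrps18c by -0.06 ± 0.06 (limma adjusted p = 1.47e-05, 5.67e-06 and 0.386).

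Mrps11 and Mrpl46 lie head to head, and so share a promoter region. The starts of Mrpl46 (minus strand) and Mrps11 (plus strand) are 42 bases apart, and the stretch that both promoter windows cover is shown on the plus strand, with the bases from one start to the other in capitals.
Mrps11 and Mrpl46, chr7:78783040-78783180 (plus strand): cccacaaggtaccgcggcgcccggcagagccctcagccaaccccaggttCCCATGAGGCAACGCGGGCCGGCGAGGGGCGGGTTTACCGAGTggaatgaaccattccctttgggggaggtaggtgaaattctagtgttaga
Mrpl46, of the large subunit, was at 45.9, 46.6 and 47.5 TPM at P7, 47.1, 47.2 and 47.9 TPM at P14 and 59.2, 56.2 and 55.8 TPM at P21, against 37.6 and 36.4 TPM in P7 input. Its P21 libraries stood above all others, 0.28 ± 0.04 over P7 (limma adjusted p = 0.000166). Mrps11, a relative of bacterial S11 in the small subunit, was at 54.9, 57.8 and 56.9 TPM at P7, 51.9, 49.0 and 57.0 TPM at P14 and 50.5, 52.5 and 49.0 TPM at P21, against 51.1 and 51.6 TPM in input. Its change from P7 to P21 was -0.16 ± 0.06 (adjusted p = 0.0394), a call that was lost with the removal of P7 replicate 2 (adjusted p = 0.108) or 3 (0.085), P14 replicate 1 (0.0519), P21 replicate 1 (0.086) or 3 (0.112), or input replicate 1 (0.052) or 2 (0.0521). Whether the changes of the pair differ was not tested.

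Other lists of genes for mitochondrial gene expression were counted in the same comparison, where 18.6% of all tested genes were higher and 51.1% lower in P7 IP, and no test between lists was run. Of the 5 subunits of the mitochondrial ribosome that carry other names, Chchd1 (0.78 ± 0.07) and Aurkaip1 (0.39 ± 0.07) were higher in P7 IP, Ptcd3 (-0.52 ± 0.09) was lower, and Dap3 and Gadd45gip1 were not called. Of 11 tested mitochondrial translation factors 1 was higher and 8 lower (median -0.58), with the recycling factor gene Mrrf at 16.2 TPM ± 1.07 in IP and 12.0 TPM ± 0.610 in input, and Guf1, the mitochondrial relative of bacterial LepA, at 6.77 TPM ± 0.706 in IP and 19.9 TPM ± 0.235 in input. None of 17 mitochondrial aminoacyl-tRNA synthetase genes was higher and 9 were lower (median -0.36, but 0.17 with quantile normalisation), among them Hars2 (-1.66 ± 0.12), so that the 52.9% that were lower are near the share over all genes. Of 25 genes for assembly of the mitochondrial ribosome and modification of its RNA 6 were higher and 12 lower (median -0.22, but 0.16 with median-of-ratios scaling and 0.30 with quantile normalisation), with the pseudouridine synthase gene Trub2 higher by 0.78 ± 0.10 and Mterf3 at -1.16 ± 0.15, and the 48.0% that were lower are again near that share. Of 10 genes for mitochondrial transcription and mRNA stability 2 were higher and 6 lower (median -0.57), with the transcription factor gene Tfb2m at 0.92 ± 0.10 and the DNA polymerase gene Polg at -1.31 ± 0.12. Of 24 genes for mitochondrial protein import 14 were higher and 4 lower, with a median of 0.39, beside 0.38 for the 78 ribosomal proteins. Among them were Timm8b, a small chaperone of the space between the membranes, at 1430 TPM ± 77.7 in IP and 376 TPM ± 6.89 in input, Tomm5 of the outer membrane pore higher by 1.58 ± 0.07 and Timm44, which holds the import motor, at -0.95 ± 0.08. With quantile normalisation the medians of synthetases and assembly changed sign, and with median-of-ratios scaling that of assembly, as given above. Those of translation factors, transcription and import kept their sign under both scalings, but changed in size. With median-of-ratios scaling the medians were -0.19 for translation factors, -0.05 for synthetases, -0.21 for transcription and 0.79 for import, beside 0.78 for the 78 ribosomal proteins, and the call of Ptcd3 was lost (-0.12, adjusted p = 0.307). With quantile normalisation the median was -0.30 for translation factors, -0.12 for transcription and 0.44 for import, beside 0.53 for the ribosomal proteins.

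With age these lists held calls in both directions as well, where 27.3% of all genes rose and 32.6% fell between P7 and P21. Between P21 and P7 IP, 4 of the 5 other subunits rose and 1 fell, with Aurkaip1 at 131 TPM ± 9.09 at P21 and 86.9 TPM ± 4.16 at P7 (0.58 ± 0.07), Dap3 higher by 0.38 ± 0.10 and Chchd1 at 129 TPM ± 5.89 at P21 and 207 TPM ± 14.8 at P7 (-0.67 ± 0.06). Translation factors had 1 rise, that of the elongation factor gene Gfm1 (0.40 ± 0.09), and 2 falls of 11, and the synthetases 3 rises, among them Fars2 (0.83 ± 0.14), and 6 falls of 17. Rars2 of this list was at 10.8 TPM ± 0.685 at P21 and 23.5 TPM ± 1.96 at P7, a change of -1.06 ± 0.08. The assembly list had 6 rises (24.0%) and 9 falls (36.0%) of 25, with the helicase gene Dhx30 at 0.76 ± 0.13 and the GTPase gene Noa1 at -0.64 ± 0.05. Transcription had 2 rises and 2 falls of 10, and import 8 rises (33.3%) and 9 falls (37.5%) of 24, shares near those of all genes, with Tomm7 at 0.89 ± 0.11 and Timm9 at -0.49 ± 0.06. Each of the 13 mitochondrially encoded mRNAs rose, mt-Co2, a subunit of cytochrome c oxidase, by 2.22 ± 0.18. All 6 oligodendrocyte and all 6 microglia markers were called higher in the same comparison, and their part in this was not tested.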

How the data were processed

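Libraries were made from polyadenylated RNA with random primers, per the labels' protocols. The authors deposited TPM values in 1 table of 77179 gene IDs, with 1 column for each of the 11 libraries. The submitters' processing notes name fastp 1.0.1, Salmon 1.10.0, DESeq2 1.46.0 and build mm39; the role of each, the annotation release and the use of strand are not stated in those sources. TPM keep no depth, and genes that take up much of a library move all others, so precision rests on the spread between libraries.

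A table of gene names paired 50886 IDs with symbols. Tests used log2(TPM + 1) and limma 3.58.1 (R 4.3.3) for the 19008 genes with 1 TPM or more in 2 or more libraries. The model had a mean for each of the 4 groups; variances were moderated along a trend, and p-values adjusted by Benjamini-Hochberg over all these genes. Contrasts were IP against input at P7, each pair of ages in IP, an F test over ages, and the difference between the weekly steps. Contrasts of ages share libraries.

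The members and gene lists were chosen with earlier results of these data known. Any member could be named; the rule asked for the 6 largest rises and falls in each pairwise comparison, the 6 highest and 3 lowest levels, up to 6 unequal steps and the Mrps18 relatives, and for up to 2 rises and 2 falls of every other list. Mrpl12, Mrpl58, Mrps11, Mrps36 and the sum of Mrpl23 with its pseudogene were picked after seeing the data. The code was tested on simulated data. Alternatives were pseudocounts of 0.1 and 5 TPM, 2 other filters, 3 other scalings, no trend, a replicate block, a fit of only the groups compared, and leaving out each library; with 1 input library left, it is assumed to vary like the other groups. Promoters and gene spans came from RefSeq (GRCm38.p6). Plots were made in matplotlib 3.10.9 (Python 3.11.15).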

Additional observations from a re-analysis of the deposited data

Results flagged for a closer look

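For 19 of the 78 genes the second weekly step in IP differed from the first (limma adjusted p under 0.05 for the difference of the 2 steps, P21 minus P14 less P14 minus P7), where 24.3% of all tested genes did. The second step was higher for 8 and lower for 11 (7.46% and 16.8% of all genes). With median-of-ratios scaling it was higher for 14 and lower for 1 (11.8% and 10.7% of all genes). With quantile normalisation it was higher for 10 and lower for 3 (10.4% and 12.3% of all genes). The second step was lower for Mrps2 (-0.56), Mrpl19 (-0.46), Mrps9 (-0.44), Mrpl3 (-0.41), Mrpl49 (-0.39), Mrpl10 (-0.36), Mrpl32, Mrpl4 and Mrpl53 (-0.32 each), Mrps12 (-0.23) and Mrps18a (-0.21). It was higher for Mrpl46 (0.24), Mrpl11 (0.32), Mrpl14 (0.35), Mrpl22 (0.37), Mrps18c (0.47), Mrps15 (0.52), Mrpl52 (0.57) and Mrpl23 (0.91). The P14 libraries enter both steps, with opposite sign. The calls of Mrps2, Mrps18c, Mrpl52 and Mrpl23 were made under every alternative tried, and those of the other 15 were each lost under at least 1. Median-of-ratios scaling alone ended those of Mrps9 (adjusted p = 0.0953) and Mrpl10 (adjusted p = 0.0963). The other 13 were each lost when 1 of the P14 libraries, among others, was left out: Mrpl11 (adjusted p = 0.0601) and Mrps15 (0.0522) without P14 replicate 1, Mrpl14 (0.0664 and 0.077), Mrpl53 (0.0885 and 0.0578) and Mrpl3 (0.0594 and 0.0522) without P14 replicate 1 or 2, Mrpl19 (0.0948 and 0.0772) without P14 replicate 2 or 3, and Mrpl4, Mrpl22, Mrpl32, Mrpl46, Mrpl49, Mrps12 and Mrps18a without P14 replicate 1 (0.0618 to 0.211) or 2 (0.0992 to 0.151) and also without libraries of the other ages.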

How the results depend on the processing

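Calls of members lower in IP than in input turned on the scaling. Of the 48 higher calls 44 were made under every alternative, against 2 of the 9 lower ones. Members lower in IP were 2 with median-of-ratios scaling (32.3% of all genes) and 5 with quantile normalisation (31.7%). They were 16 (56.1% of all genes) after rescaling without haemoglobin, cytosolic ribosomal protein and mitochondrially encoded genes. Median-of-ratios scaling turned the sign of Mrps31 (0.01), Mrpl41 (0.06), Mrpl16 (0.12), Mrpl9 (0.14), Mrpl38 (0.14), Mrpl3 (0.18) and Mrpl39 (0.18), and quantile normalisation that of Mrps31 (0.08) and Mrpl39 (0.19); both move the median of all genes up, by 0.33 and 0.36. At P21 against P14, 19 members rose and 1 fell with median-of-ratios scaling (14.4% and 12.0% of all genes), and 5 fell with quantile normalisation (14.0%). Of the unequal steps, 14 were higher and 1 lower with median-of-ratios scaling (11.8% and 10.7% of all genes). The lower ones were 3 with quantile normalisation (12.3% of all genes), 7 with no filter and 6 with no trend. With 1 library left out, counts ranged from 45 to 49 higher and 6 to 9 lower for IP against input, from 18 to 22 rises and 13 to 17 falls at P14 against P7, from 6 to 12 rises and 6 to 14 falls at P21 against P14, from 19 to 26 rises and 23 to 26 falls at P21 against P7, from 3 to 8 higher and 3 to 13 lower second steps, and from 48 to 53 in the F test. The cause was not tested. Shares over all tested genes are not given for the settings with no filter, no trend or 1 library left out. A drop in calls there is therefore not read as a trait of the members. Over the 78 members, 46 of 57 calls of IP against input, 29 of 37 at P14 against P7, 5 of 24 at P21 against P14, 34 of 51 at P21 against P7 and 4 of 19 unequal steps were made under every alternative.

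Same-numbered libraries of different groups correlated in their deviations from the group means at -0.105 to 0.177, and others at -0.167 to 0.167. Among IP libraries alone same-numbered ones correlated at 0.012 to 0.177, all positive, and others at -0.123 to 0.102. Whether the numbers stand for pairs or batches of libraries was not tested. With the replicate number as a block, 50 members were higher and 9 lower in IP against input (18.4% and 51.8% of all genes). At P14 against P7 21 rose and 17 fell (27.3% and 23.3%), and at P21 against P14 11 and 13 (8.69% and 20.7%). At P21 against P7 26 rose and 23 fell (27.8% and 33.1%). The second step was higher for 8 and lower for 11 (7.69% and 17.9%), and the F test called 53 (63.2% of all genes).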
